A study of Homo sapiens with 6 samples.

Results

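The genes described here were 41 human genes of the G2 and M phases of the cell cycle, among 26967 genes named in the deposited expression table. They were taken by current gene symbol from a list chosen with earlier results of these data known, with all RefSeq transcripts of a gene summed. All 41 were found and passed the filter on low values (a mean of at least 10 normalized counts over the libraries). RNA-seq was done on UWB1.289, an established human ovarian carcinoma cell line that carries a BRCA1 mutation. Lentiviral hairpin RNA was delivered to the cells, with 3 libraries from control transductions (shCTRL) and 3 from transductions targeting HBO1 (shHBO1), a histone acetyltransferase whose gene is KAT7. Both groups were exposed to polybrene at 10 µg/mL and, from 96 h, to puromycin at 1 to 3 µg/mL, so the control shared infection and drug selection with the knockdown. The libraries carried the replicate numbers 1 to 3 in each group, and values of single libraries are given in that order, in normalized counts. The labels do not give the number of hairpins and do not say that the libraries were separate cultures, and the p-values may therefore rest on technical spread alone.

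Cells build a spindle, line up chromosomes and divide with proteins whose messenger RNAs accumulate in G2 and mitosis and are low in G1. In textbook accounts, this timing is set by the MuvB complex, which represses these genes with the DREAM proteins in quiescent cells and activates them with B-MYB and FOXM1 in G2. It reaches many of them through a promoter element named the cell cycle genes homology region (CHR), often close to CCAAT boxes, which are the sites of NF-Y. HBO1 acetylates histone tails and takes part in the licensing of replication origins, and the comparison asked how transcript levels differed between cells with and without its knockdown.

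The promoters of 8 members are shown because they hold the elements just named in different arrangements, and because 6 of them belong to genes that differed between the replicate numbers. Each line gives the 120 bases before the annotated transcript start in RefSeq (build GRCh38.p14), 5′ to 3′ on the gene's strand, with CCAAT or its reverse complement ATTGG and TTTGAA or its reverse complement TTCAAA in capitals. CCNB1 is at chr5:69167030-69167149 (+), CCNB2 at chr15:59105026-59105145 (+), PLK1 at chr16:23678769-23678888 (+) and PRC1 at chr15:90994536-90994655 (-). HMMR is at chr5:163460512-163460631 (+), CENPF at chr1:214603075-214603194 (+), NUSAP1 at chr15:41332761-41332880 (+) and KIF2C at chr1:44739717-44739836 (+).
CCNB1: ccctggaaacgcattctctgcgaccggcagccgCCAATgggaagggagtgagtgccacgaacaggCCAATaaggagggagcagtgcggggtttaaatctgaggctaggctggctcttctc
CCNB2: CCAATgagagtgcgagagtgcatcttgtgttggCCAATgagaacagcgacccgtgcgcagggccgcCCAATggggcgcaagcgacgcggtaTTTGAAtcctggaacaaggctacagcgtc
PLK1: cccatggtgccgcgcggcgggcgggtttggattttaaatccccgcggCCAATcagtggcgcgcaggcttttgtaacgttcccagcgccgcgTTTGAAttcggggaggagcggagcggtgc
PRC1: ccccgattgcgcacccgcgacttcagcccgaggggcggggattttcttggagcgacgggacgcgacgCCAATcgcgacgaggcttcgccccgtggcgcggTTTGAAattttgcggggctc
HMMR: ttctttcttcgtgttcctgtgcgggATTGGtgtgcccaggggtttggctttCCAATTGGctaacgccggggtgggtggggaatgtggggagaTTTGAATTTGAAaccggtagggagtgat
CENPF: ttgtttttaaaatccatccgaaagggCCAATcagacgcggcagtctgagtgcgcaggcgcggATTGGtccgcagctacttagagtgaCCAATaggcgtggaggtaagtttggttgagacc
NUSAP1: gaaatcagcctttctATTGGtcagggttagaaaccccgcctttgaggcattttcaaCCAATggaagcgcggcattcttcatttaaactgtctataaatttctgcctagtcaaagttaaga
KIF2C: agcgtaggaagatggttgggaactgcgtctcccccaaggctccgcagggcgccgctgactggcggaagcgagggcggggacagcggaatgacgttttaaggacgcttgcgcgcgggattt

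CCNB2, PLK1 and PRC1 held CCAAT upstream of TTTGAA, which is the core of the CHR. HMMR held the same pair, with TTTGAA present as 2 copies in a row and a CCAAT that overlaps an ATTGG. CCNB1, CENPF and NUSAP1 held CCAAT boxes without TTTGAA, and KIF2C held neither.

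Of the 41 members, 35 had an entry among the promoter sequences used. AURKA, BIRC5, BUB3, TPX2, TTK and UBE2C had none. In the 250 bases before the start, TTTGAA (either strand) was found in 18 of 35 members (51.4%), against 16.1% of 27305 genes with an entry and 11.8% of 12010 genes that had an entry and were tested. CCAAT (either strand) was found in 28 of 35 (80%), against 37.0% of all and 41.04% of tested genes. Both were found in 16 of 35 (45.7%), against 5.79% of all and 4.67% of tested genes. The variant TTCGAA, which reads the same on both strands, was found in 1 of 35 members, CDC25B, against 1.498% of all genes. There were 12 members with CCAAT alone, 2 with TTTGAA alone (BUB1B and ANLN) and 5 with neither (NDC80, NUF2, CENPE, KIF2C and CKAP2). A match is a description of the letters, not a site of binding or a cause.

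**Figure D1:**
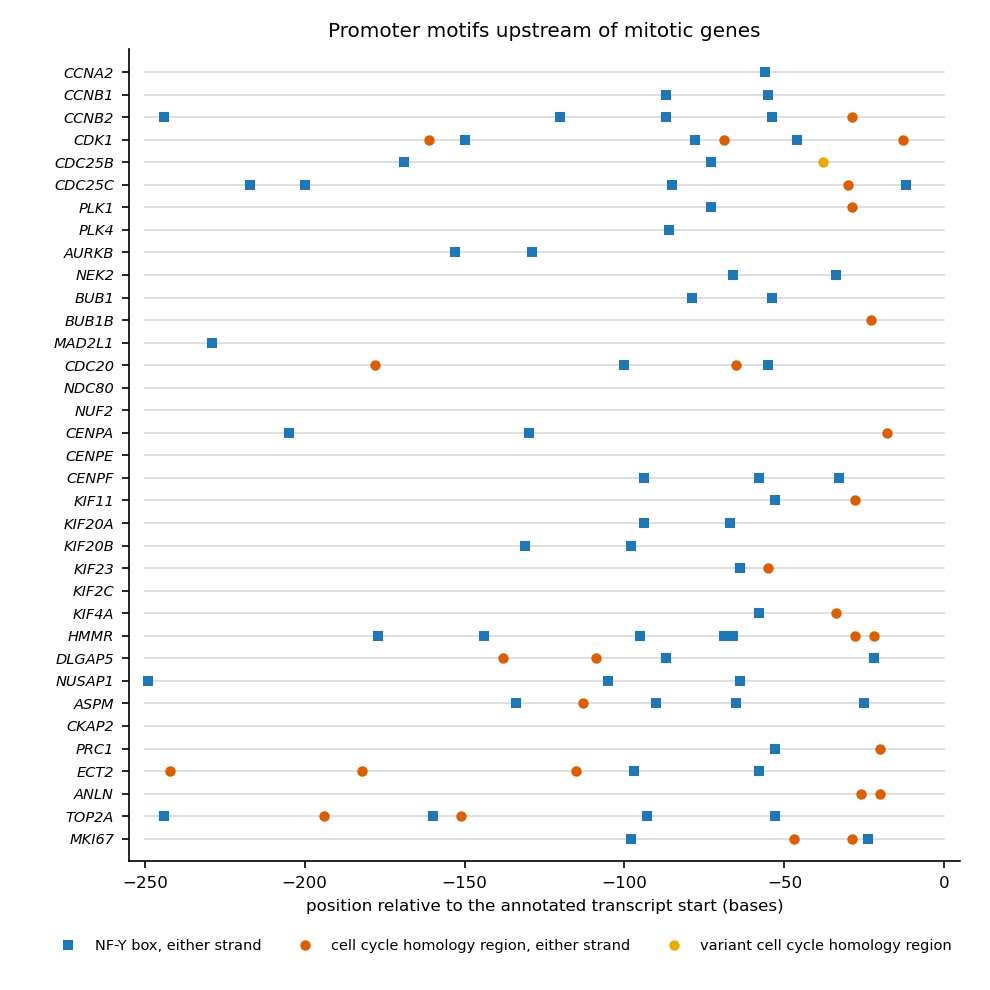
Position of promoter motifs in 35 members, with distance from the annotated transcript start in bases on the x axis and 1 row for each gene in order of role. Squares mark CCAAT on either strand, orange circles TTTGAA on either strand and the yellow circle TTCGAA. Squares stand in 28 rows and orange circles in 18, and 5 rows are empty.

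The libraries held 35940400 to 39908703 reads, and the least covered member had 397 reads in its lowest library. KAT7 was at 3616, 3952 and 3554 in the shCTRL libraries and at 1008, 872 and 784 in the shHBO1 libraries (23.9% of control, log2 fold change -2.07, SE 0.11, adjusted p = 0.00123 in limma, lower in 3 of 3 numbered pairs), and the exact two-sided permutation p was 0.1, the smallest that 3 against 3 allows. The number 3 libraries of both groups stood apart from the other 4 on the first principal component (44.4% of the variance). The epithelial genes EPCAM (26479 to 29891 normalized counts) and PAX8 (8001 to 11302) were high in all 6 libraries, while WT1, a marker of serous ovarian cancer, lay between 0 and 26.2. Markers of other cell types were mixed. The T cell gene CD3D, the erythroid gene HBB, the fibroblast gene DCN and the neural genes SOX10 and RBFOX3 were at 0 in all 6 libraries, whereas CD68 (456 to 633) and ITGAM (98.8 to 169.9) of the leukocyte list, CDH5 (674 to 1232) and COL1A1 (502 to 895) of the fibroblast and endothelial list and TUBB3 (3365 to 7119) of the neural list were detected in every library.

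None of the members passed the test of shHBO1 against shCTRL. In limma, 0 of 41 members passed an adjusted p of 0.05, against a background of 0.00659% of 15173 genes tested, which was KAT7 alone. At an unadjusted p under 0.05 the count was 0 of 41 (background 3.55%). The groups overlapped for every member, whereas they did not overlap for 8.93% of all genes tested (4.49% higher and 4.44% lower in shHBO1). Means in shHBO1 were 87.5% to 115% of the shCTRL means, and 38 of 41 lay within 10% of control. The extremes moved with single control libraries, as the highest log2 fold change, that of ASPM, was 0.23 with all libraries and 0.41 without shCTRL 1, and the lowest was -0.17 (CDC25C) with all libraries and -0.38 (HMMR, with CDC25C also at -0.38) without shCTRL 3. The median log2 fold change of the members was 0.012, beside 0.00013 for all genes tested, with 22 estimates above 0 (background 50%) and 19 below. These signs turned on single libraries, since 35 estimates were above 0 without shCTRL 2 (median 0.055) and without shHBO1 3 (median 0.060), but 12 without shCTRL 3 (median -0.064) and 8 without shHBO1 2 (median -0.056). In bulk RNA, a change in the number of cells in G2 or mitosis and a change in RNA per such cell cannot be told apart.

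Confidence intervals show which sizes of difference the scatter among the sequenced libraries left possible. Each interval was computed for a single gene, and together they set no joint bound. Because separate cultures are not documented, the intervals may be too narrow for a difference between cultures and do not bound it. The 95% confidence interval of the difference lay within 1.5-fold in either direction for 38 of 41 members (background 66.1%), the exceptions being ASPM, CDC25C and HMMR, and within 2-fold for all 41 (background 85.3%). The background includes genes down to a mean of 10 normalized counts, whereas the least covered member had 397 reads in its lowest library. The median SE was 0.096 for the members and 0.137 for all genes tested. The part of expression level in this contrast was not tested. Over the members, the interval bounds ran from -0.62 to 0.62 on the log2 scale. The count of called members was also 0 with edgeR (background 0.00659%) and with DESeq2 (background 0.125%). With the replicate number as a block it was 0 with limma (background 0.125%), edgeR (0.125%) and DESeq2 (1.13%), and 2 members, BIRC5 and ASPM, had an unadjusted p under 0.05 in limma (background 11.3%). Without the number 3 libraries, the blocked limma fit, which rests on 1 residual degree of freedom, called 4 members (BIRC5, HMMR, NUSAP1 and MKI67), while calling 15.3% of all genes tested.

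**Figure D2:**
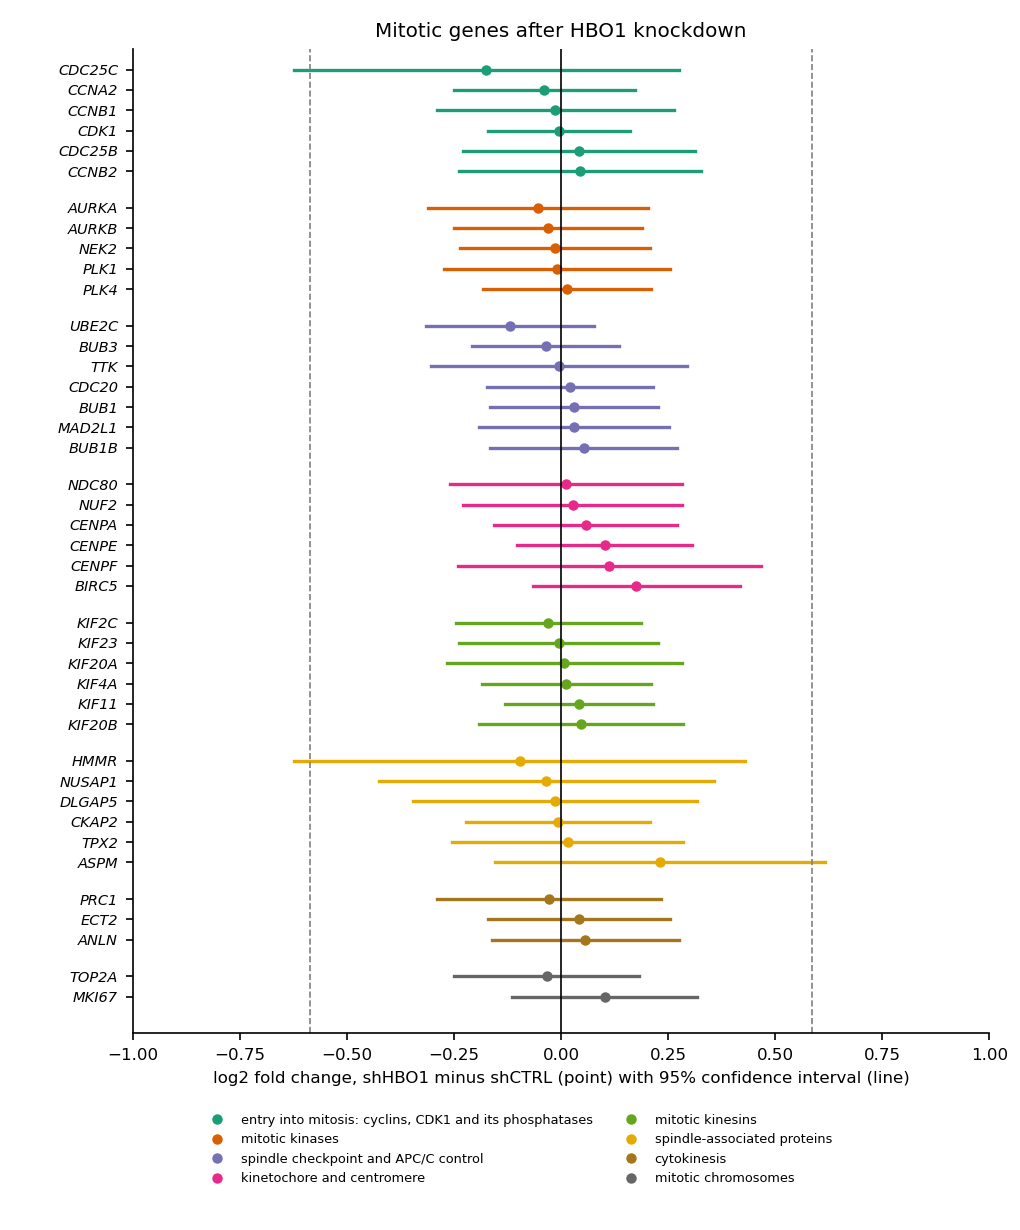
Difference between shHBO1 and shCTRL for the 41 members, grouped by role, as log2 fold change (points) with its 95% confidence interval (lines) from limma on 3 libraries per group. The dashed lines mark 1.5-fold in either direction. All 41 intervals include 0, and those of CDC25C, HMMR and ASPM cross a dashed line.

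Entry into mitosis is driven by cyclin-CDK1, which CDC25 phosphatases switch on. CDK1, the kinase itself, was at 10497, 10649 and 10337 in the shCTRL libraries and at 10325, 11260.3 and 9826 in the shHBO1 libraries. Its partner cyclin B1, encoded by CCNB1, was at 9146, 10131 and 8199.8 in the shCTRL libraries and at 9091, 10358 and 7845 in the shHBO1 libraries. Cyclin B2 (CCNB2) was at 3776, 4116 and 3057 in the shCTRL libraries and at 3692, 4091 and 3443 in the shHBO1 libraries. In all 3 genes the number 2 library was the highest of its group and the number 3 library the lowest. Cyclin A2 (CCNA2), which acts in S phase and G2, was at 4453, 4304 and 3658 in the shCTRL libraries and at 4045, 4178 and 3827 in the shHBO1 libraries. CDC25B was at 3973, 4067 and 3104 in the shCTRL libraries and at 3876, 4029 and 3504 in the shHBO1 libraries. CDC25C was at 618, 652 and 416 in the shCTRL libraries and at 503, 554 and 419 in the shHBO1 libraries. The number 3 libraries were again the lowest of both groups, and the groups overlapped. The log2 fold change was -0.17 (95% CI -0.62 to 0.27) for CDC25C, the furthest below 0 of all members, and -0.039 (95% CI -0.25 to 0.17) for CCNA2. It was -0.014 for CCNB1, -0.0055 for CDK1, 0.042 for CDC25B and 0.043 for CCNB2. None of the 6 passed the test (lowest unadjusted p = 0.396, limma).

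The mitotic kinases phosphorylate spindle and centrosome proteins. PLK1, which acts from mitotic entry to cytokinesis, was at 12978, 14756 and 11852 in the shCTRL libraries and at 13139, 14691 and 11532 in the shHBO1 libraries. AURKA, which matures centrosomes, was at 8088, 9041 and 7526 in the shCTRL libraries and at 7629, 9093 and 7095 in the shHBO1 libraries. AURKB, the kinase of the chromosomal passenger complex, was at 6229, 6504 and 5924 in the shCTRL libraries and at 6133, 6804 and 5407 in the shHBO1 libraries. For these 3 kinases the number 2 libraries were the highest and the number 3 libraries the lowest of both groups, and the groups overlapped. NEK2, which separates centrosomes, was at 1491, 1636 and 1376 in the shCTRL libraries and at 1389, 1571 and 1494 in the shHBO1 libraries. PLK4, the kinase that starts centriole duplication, was at 1154, 1224 and 1317 in the shCTRL libraries and at 1262, 1232 and 1231 in the shHBO1 libraries. PLK4 had its highest shCTRL value in number 3, unlike the other 4. The largest difference of the 5 was that of AURKA, with a log2 fold change of -0.054 (95% CI -0.31 to 0.20), and AURKB was next at -0.030 (95% CI -0.25 to 0.19). None passed the test (lowest unadjusted p = 0.642, limma).

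The spindle checkpoint holds back the anaphase-promoting complex (APC/C) until every kinetochore is attached. BUB1, a checkpoint kinase at the kinetochore, was at 8405, 8725 and 7416 in the shCTRL libraries and at 8385, 8808 and 7850.1 in the shHBO1 libraries. BUB1B, which encodes the APC/C inhibitor BUBR1, was at 2708, 3062 and 2608 in the shCTRL libraries and at 2846, 3153 and 2689 in the shHBO1 libraries. BUB3, which docks both proteins at kinetochores, was at 4199.7, 4373 and 4734 in the shCTRL libraries and at 4189, 4516 and 4265 in the shHBO1 libraries. BUB1 and BUB1B were lowest in number 3 in both groups, whereas BUB3 was highest in number 3 among the control libraries. TTK, the kinase that starts checkpoint signalling, was at 3457, 3439.9 and 2521 in the shCTRL libraries and at 3189, 3188 and 2918 in the shHBO1 libraries. MAD2L1, which encodes the inhibitor MAD2, was at 2727, 2557 and 2848 in the shCTRL libraries and at 2548, 3119 and 2664 in the shHBO1 libraries. The lowest TTK value was that of shCTRL 3, and the highest MAD2L1 value that of shHBO1 2. CDC20, the APC/C activator that the checkpoint blocks, was at 10492, 11505 and 11206 in the shCTRL libraries and at 10696, 12430.3 and 10613 in the shHBO1 libraries. UBE2C, the ubiquitin-conjugating enzyme of the APC/C, was at 11648, 12098 and 11059 in the shCTRL libraries and at 11278, 11238 and 9589 in the shHBO1 libraries. UBE2C was lower in shHBO1 in each of the 3 numbered pairs, but 2 shHBO1 values lay within the shCTRL range. Its log2 fold change was -0.12 (95% CI -0.32 to 0.076), with an unadjusted p of 0.196 in limma. BUB1B had a log2 fold change of 0.053 (95% CI -0.17 to 0.27), and none of the 7 passed the test.

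Kinetochores couple chromosomes to microtubules. BIRC5, which encodes survivin of the chromosomal passenger complex, was at 5309.8, 5923 and 6577 in the shCTRL libraries and at 5975, 7059.8 and 7070.4 in the shHBO1 libraries. It was higher in shHBO1 in each of the 3 numbered pairs, yet shCTRL 3 lay above shHBO1 1. Its log2 fold change of 0.18 (95% CI -0.066 to 0.42) had the smallest unadjusted p of the 41 members, 0.132 in limma. With the replicate block the unadjusted p was 0.014 and the adjusted p 0.314. CENPE, a kinetochore motor, was at 1631, 1436 and 1472 in the shCTRL libraries and at 1517, 1679 and 1672 in the shHBO1 libraries. CENPF, a large protein of the outer kinetochore, was at 5488, 5302 and 4164 in the shCTRL libraries and at 5983, 5889.8 and 4347 in the shHBO1 libraries. The number 3 libraries of both groups were the lowest for CENPF, and its shHBO1 value was above the shCTRL value of the same number in all 3 pairs. NDC80, which binds microtubules at the kinetochore, was at 4265, 4422 and 3408 in the shCTRL libraries and at 3915, 4466 and 3771 in the shHBO1 libraries. NUF2, its partner, was at 3748, 3238 and 2895 in the shCTRL libraries and at 3141, 3649 and 3241 in the shHBO1 libraries. CENPA, the histone variant that marks centromeres, was at 2486, 2633 and 2214 in the shCTRL libraries and at 2538, 2709.7 and 2375 in the shHBO1 libraries. All 6 estimates of this group were above 0 (background 50%), from 0.012 for NDC80 to 0.18 for BIRC5, with a median of 0.080. For NDC80, NUF2, CENPA and CENPF, shCTRL 3 was the lowest of the 6 libraries, and the signs of the 41 members turned on single libraries. CENPE had a log2 fold change of 0.10 (95% CI -0.10 to 0.31). None passed the test.

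Mitotic kinesins slide, shorten or travel along microtubules. KIF11, which pushes spindle poles apart, was at 4349, 4567 and 4267 in the shCTRL libraries and at 4334, 4874 and 4383 in the shHBO1 libraries. KIF20B, a kinesin of late mitosis, was at 1383, 1187 and 1107 in the shCTRL libraries and at 1223, 1252 and 1308 in the shHBO1 libraries. These 2 had the smallest unadjusted p-values of the 6 kinesins, 0.586 for KIF11 and 0.662 for KIF20B in limma. The log2 fold change was 0.042 (95% CI -0.13 to 0.22) for KIF11 and 0.047 (95% CI -0.19 to 0.28) for KIF20B. KIF2C, which depolymerizes microtubules at centromeres, was at 4676, 5123 and 4415 in the shCTRL libraries and at 4685, 5049 and 4202 in the shHBO1 libraries. KIF4A, a motor on chromosome arms, was at 1575, 1743 and 1655 in the shCTRL libraries and at 1628, 1796 and 1594 in the shHBO1 libraries. KIF20A, which acts at the central spindle, was at 3048, 3591 and 2684 in the shCTRL libraries and at 3076, 3383 and 2871 in the shHBO1 libraries. For the last 3 the number 2 library was the highest of both groups. KIF23, the motor subunit of centralspindlin, was at 5143, 5523 and 4693 in the shCTRL libraries and at 5197, 5599.6 and 4532 in the shHBO1 libraries. Estimates for the 6 kinesins ran from -0.030 to 0.047, and the median was 0.010.

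The spindle-associated proteins had the highest median SE of any role, 0.15 on the log2 scale. ASPM, a spindle pole protein, was at 5049.8, 3875 and 3084 in the shCTRL libraries and at 4936, 4669 and 4233 in the shHBO1 libraries. HMMR, a spindle protein that is also a hyaluronan receptor, was at 9003, 7648 and 4623 in the shCTRL libraries and at 6733, 6914 and 5589 in the shHBO1 libraries. NUSAP1, which bundles microtubules around chromosomes, was at 4488, 4749 and 3031 in the shCTRL libraries and at 3975, 4279.9 and 3537 in the shHBO1 libraries. The number 3 control library was the lowest of the 6 for all 3 genes. DLGAP5, a stabilizer of kinetochore fibres, was at 3003, 3128 and 2188 in the shCTRL libraries and at 2645, 2985 and 2532 in the shHBO1 libraries. CKAP2, a microtubule-binding protein, was at 8339, 8486 and 7036 in the shCTRL libraries and at 7725, 8465 and 7499.8 in the shHBO1 libraries. TPX2, which activates AURKA and nucleates microtubules, was at 17746, 19894 and 16235 in the shCTRL libraries and at 18479.8, 20457 and 15652 in the shHBO1 libraries. All 6 genes were lowest in number 3 in both groups. ASPM had the highest estimate of the 41 members, 0.23 (95% CI -0.15 to 0.62), with an unadjusted p of 0.203 in limma, or 0.0319 with the replicate block (adjusted 0.399). HMMR had a log2 fold change of -0.097 (95% CI -0.62 to 0.43), the widest interval of all members. The coefficient of variation within shCTRL was 31.6% for HMMR, 24.7% for ASPM and 22.6% for NUSAP1, beside a median of 9.42% over the 41 members. Within shHBO1 the same 3 genes had 11.2%, 7.69% and 9.51%, beside a median of 8.74%. None of the 6 differed between the groups in the test.

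Cytokinesis separates the daughter cells. PRC1, which bundles the antiparallel microtubules of the midzone, was at 12011, 12700.2 and 10524 in the shCTRL libraries and at 12021, 12686 and 9912 in the shHBO1 libraries. ECT2, the exchange factor that activates RhoA at the cleavage plane, was at 12369.6, 11576 and 10246 in the shCTRL libraries and at 11386, 12688 and 11072 in the shHBO1 libraries. ANLN, a scaffold of the contractile ring, was at 6042, 6702 and 5976 in the shCTRL libraries and at 6289, 7289 and 5938 in the shHBO1 libraries. All 3 were lowest in number 3 in both groups. Log2 fold changes were 0.057 (95% CI -0.16 to 0.28) for ANLN, 0.042 (95% CI -0.17 to 0.25) for ECT2 and -0.029 for PRC1, and none passed the test.

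Among genes of mitotic chromosomes, TOP2A, the topoisomerase that untangles sister chromatids, was at 9286, 9633 and 8268 in the shCTRL libraries and at 9119.8, 9496 and 7971 in the shHBO1 libraries. MKI67, which encodes the proliferation marker Ki-67, a coat protein of mitotic chromosomes, was at 5319, 5319 and 5554 in the shCTRL libraries and at 6229.7, 6162 and 5056 in the shHBO1 libraries. TOP2A was slightly lower in shHBO1 in each numbered pair, with a log2 fold change of -0.033 (95% CI -0.25 to 0.18). MKI67 was higher in shHBO1 in numbers 1 and 2 and lower in number 3, with pair differences of 0.23, 0.21 and -0.14 on the log2 scale and a log2 fold change of 0.10 (95% CI -0.11 to 0.32). Neither passed the test. HMMR and NUSAP1 changed sign between pairs as well, with differences of -0.42, -0.15 and 0.27 for HMMR and of -0.18, -0.15 and 0.22 for NUSAP1. These genes and BIRC5 were the 4 called when number 3 was left out. Over all members, 14.6% had the same sign in all 3 pairs (background 32.4%).

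Levels per length placed the members over a 76.3-fold range in shCTRL. Normalized counts were divided by the length of each transcript in kb before summing, which allows genes to be compared. For genes with several transcripts, these levels depend on how reads were divided among them, which is not known, so their order is uncertain. UBE2C was the highest, at 13934 ± 615 per kb in shCTRL and 12886 ± 1213 in shHBO1 (SD, n = 3). CDC20 (6608 ± 311 in shCTRL), PLK1 (5925 ± 657), CDK1 (5537 ± 66.1) and AURKB (5359 ± 202) came next, and each of these 4 overlapped its neighbour in the order, whereas UBE2C did not overlap CDC20. At the low end were CENPE (183 ± 12.3), KIF20B (194 ± 22.7), CDC25C (269 ± 61.5) and PLK4 (347 ± 1.32), of which the first 3 overlapped their neighbours and PLK4 did not overlap CDC25C. The median member had 1644 per kb. The order of the genes in shHBO1 was nearly that in shCTRL, with a Spearman correlation of 0.996 across the 41 genes, which are not independent replicates.

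**Figure D3:**
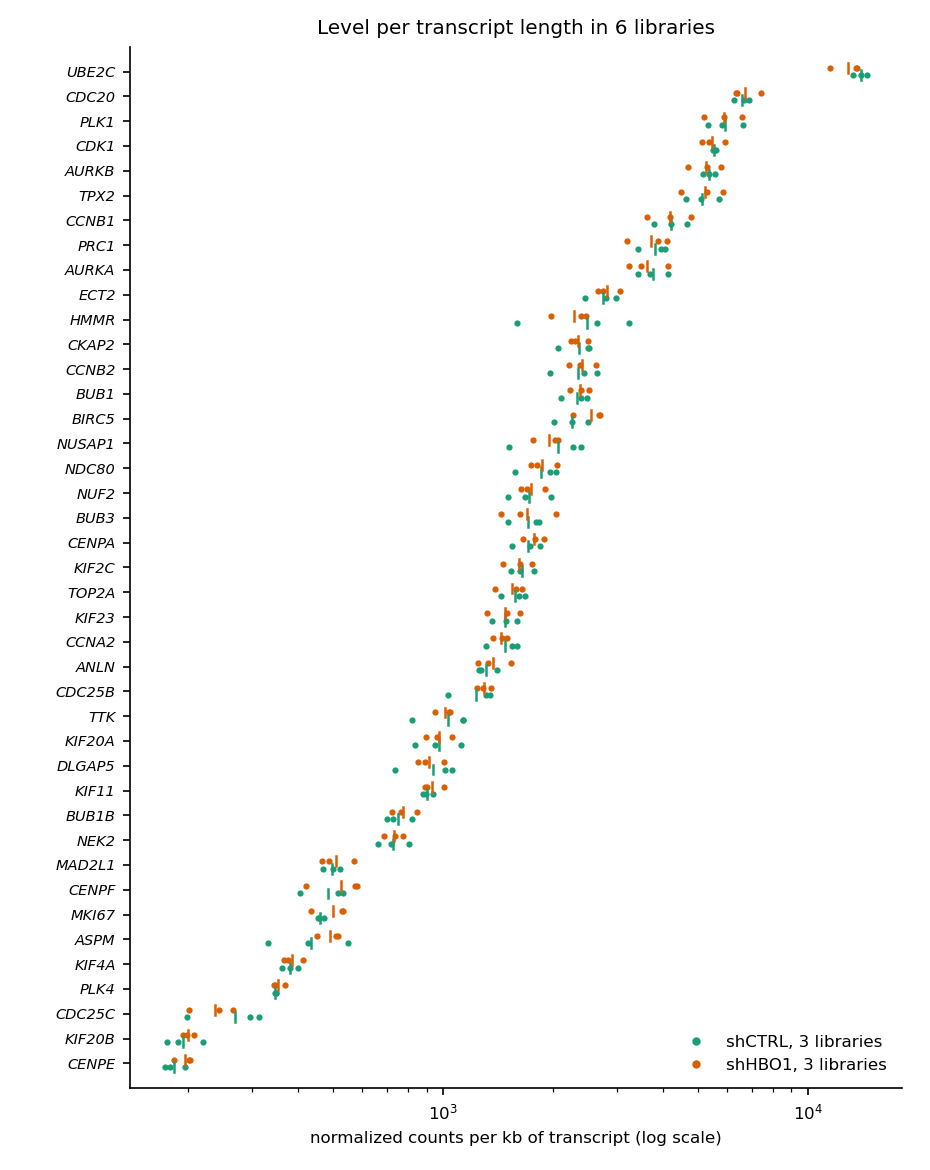
Level of each member in 6 libraries, in normalized counts per kb of transcript (x axis, log scale), with genes ordered by the shCTRL mean. Points are libraries and short vertical lines are group means of 3 libraries, green for shCTRL and orange for shHBO1. Members run from UBE2C at 13934 per kb to CENPE at 183 per kb, and the 2 colours overlap in every row.

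The members varied together with the replicate number. The share of reads from the 41 genes was 0.660%, 0.673% and 0.572% in shCTRL 1, 2 and 3 and 0.639%, 0.681% and 0.599% in shHBO1 1, 2 and 3. The number 3 library had the lowest share in both groups, and the number 2 library the highest. Averaged over the members, the log2 level relative to each gene's mean was 0.044, 0.082 and -0.15 in shCTRL and 0.0015, 0.12 and -0.10 in shHBO1. Of the 41 members, 29 (70.7%) were lowest in number 3 in both groups, against 24.5% of all genes tested. There were 26 members (63.4%) highest in number 2 in both groups (background 12.2%), and 22 did both.

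**Figure D4:**
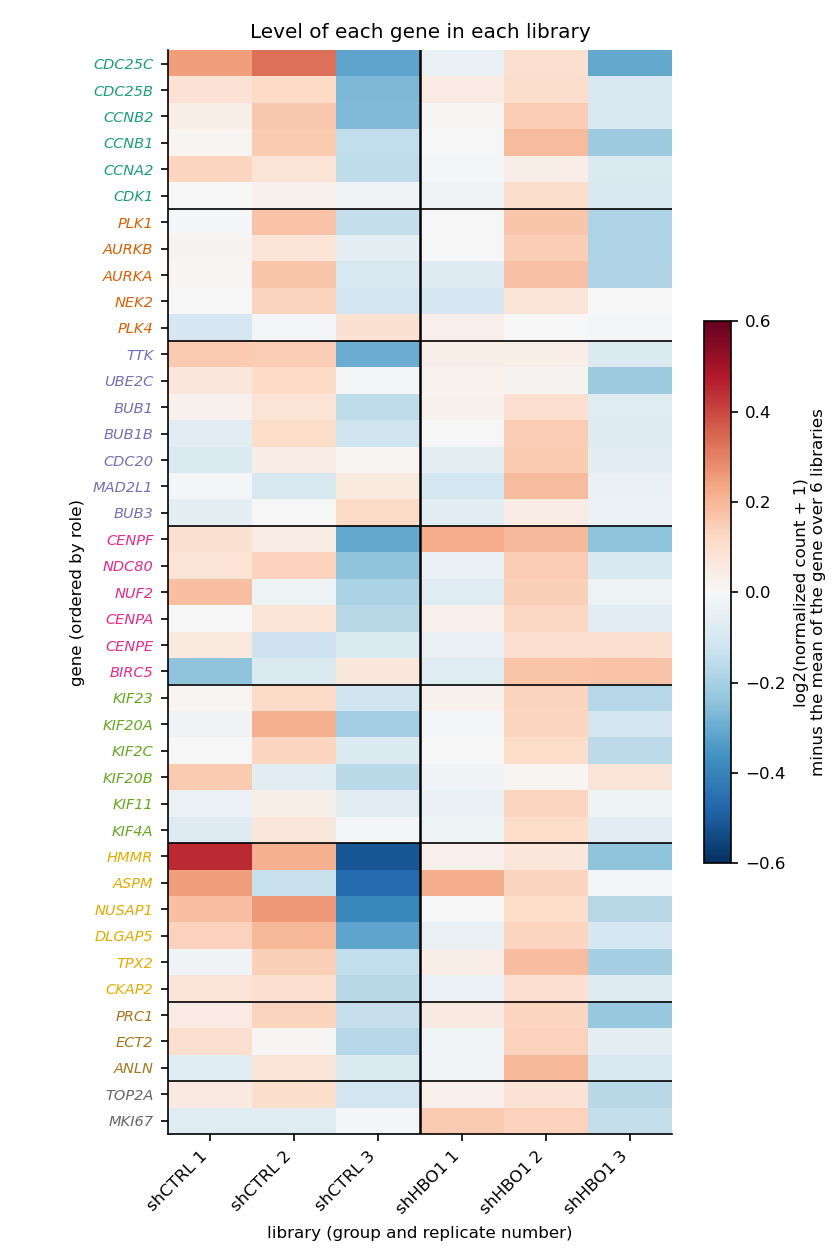
Level of the 41 members (rows, by role) in 6 libraries (columns, by group and replicate number), as log2(normalized count + 1) minus the mean of the gene over all libraries. Red is above and blue below the gene's mean. Both number 3 columns are mostly blue (means -0.15 and -0.10) and both number 2 columns mostly red (0.082 and 0.12).

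Between replicate numbers, with the group kept in the model, 8 of 41 members (19.5%) passed an adjusted p of 0.05 in limma's F test, against a background of 9.68% of genes tested. The test was given because libraries of the same number correlated in these same values, so it is not independent evidence that the numbers pair. They were the cyclin CCNB1 (adjusted p = 0.0336), the kinases PLK1 (0.0384) and AURKA (0.0476), the kinetochore gene CENPF (0.0132), the spindle genes TPX2 (0.0420), HMMR (0.0492) and NUSAP1 (0.0492), and PRC1 (0.0430) of the midzone. Number 3 was below number 1 in each of these, with a log2 difference of -0.62 for HMMR, -0.43 for CENPF, -0.37 for NUSAP1, -0.23 for PRC1, -0.19 for CCNB1, -0.18 for TPX2, -0.16 for PLK1 and -0.10 for AURKA. As levels, HMMR in number 3 was 64.9% of number 1, CENPF 74.2%, and AURKA 93.0%. Over all members the median difference of number 3 from number 1 was -0.14 (all genes 0.0031), with 35 of 41 below 0 (background 49.5%), and that of number 2 from number 1 was 0.094. By role it was -0.31 for the spindle-associated proteins, -0.19 for mitotic entry, -0.16 for cytokinesis, -0.15 for kinetochores, -0.12 for kinesins, -0.10 for kinases and -0.068 for the checkpoint genes. There were 6 members with number 3 above number 1 (PLK4, BUB3, MAD2L1, CDC20, BIRC5 and KIF4A), the largest difference being 0.28 for BIRC5. Of 6 called members with a promoter entry, 3 held TTTGAA and 6 held CCAAT, and of 29 not called, 15 and 22 did.

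These calls depended on the method and on single libraries. With other limma settings there were 6 members with a pseudocount of 0.5 (background 9.52%), 8 with a pseudocount of 5 (10%), 2 with every gene above 0 tested (5.15%), 9 with a mean of at least 50 (12.3%), 10 with quantile normalization (11.9%) and 8 with TMM scaling (9.94%). Members called numbered 5 with edgeR (background 9.62%), 14 with DESeq2 (14.7%) and 0 when only the most abundant transcript of each gene was used (0.087%). Without shCTRL 2 or without shHBO1 2 the count was 0 (background 3.65% and 3.59%), without shCTRL 1 it was 3 (8.51%), without shHBO1 1 it was 8 (12.7%), without shCTRL 3 it was 21 (21.4%) and without shHBO1 3 it was 29 (39.1%). Without both number 3 libraries it was 9 (7.55%), of which 4 were among the 8. Every one of these fits with libraries left out had 1 residual degree of freedom, so their counts are uncertain. The order of libraries moved little with scaling, and it was not recounted with libraries left out. With quantile normalization 28 members and with TMM scaling 29 were lowest in number 3 in both groups, and with the most abundant transcript alone 27 were. The share over all genes was not computed for these 3 settings.

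Other genes differed with the replicate number too, against a background of 9.68% of all genes tested. Of 12 epithelial and serous markers, 6 differed between numbers in the same test (PAX8, KRT19, MUC16, CLDN3, CLDN4 and MSLN), with a median number 3 minus number 1 of -0.43. Their summed level was 357932 to 432550 normalized counts in shCTRL and 337859 to 401651 in shHBO1, lowest in number 3 of both groups. The neural list differed in 1 of its 3 tested genes, TUBB3 (-0.98), with a summed level of 3419 to 6725 in shCTRL and 3651 to 7164 in shHBO1. The fibroblast and endothelial list differed in 1 of 7, COL1A2 (-0.84), with summed levels of 1606 to 2502 and 1797 to 2261. The 4 tested leukocyte genes did not pass the test between numbers, and the summed level of that list was 685 to 768 in shCTRL and 673 to 782 in shHBO1. The part of these genes in the member result was not tested.

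Genes that act with the members were looked at in lists of the same pathway. In none of the 7 lists did a gene pass the limma test of shHBO1 against shCTRL. Among 16 FOXM1, B-MYB and DREAM genes the median log2 fold change was -0.026. FOXM1, the activator of G2 and M genes, was at 8067 ± 625 in shCTRL and 8364 ± 395 in shHBO1 (SD, n = 3, log2 fold change 0.054). MYBL2, which encodes B-MYB, was at 12695 ± 1196 in shCTRL and 12274 ± 553 in shHBO1 (-0.045). The MuvB subunits LIN9 and LIN54 had log2 fold changes of 0.080 and -0.028, and RBBP4, the histone-binding subunit, had -0.11 with all shHBO1 values below all shCTRL values and an unadjusted p of 0.125. The groups did not overlap for 1 of the 16 regulators (background 8.93%), and none of the 16 passed the test.

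The median log2 fold change was 0.024 over 19 APC/C genes, where ANAPC15 (-0.17) and ANAPC1 (0.14) had the smallest unadjusted p-values. It was 0.039 over 8 condensin genes, with SMC4 at 0.088 and SMC2 at 0.10. Over 37 other kinetochore and checkpoint genes it was 0.026. KNL1, the scaffold that recruits BUB1 to kinetochores, was at 872, 878 and 989 in the shCTRL libraries and at 1031, 1063 and 1070.2 in the shHBO1 libraries, so the groups did not overlap, and its log2 fold change of 0.21 had an unadjusted p of 0.049 in limma. DSN1, of the kinetochore MIS12 complex, had -0.12, also without overlap. Of these 37 genes, 4 did not overlap (background 8.93%) and 1 had an unadjusted p under 0.05 in limma (background 3.55%). Over 30 other kinesin, spindle and cytokinesis genes the median was 0.0077, with DEPDC1B at -0.13 and KIF14 at 0.13. Over 10 brakes on entry into mitosis it was 0.018, with the CDK inhibitor CDKN1A at -0.18 and the CDK1-inhibiting kinase PKMYT1 at -0.094.

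The 24 genes of the G1/S transition, which E2F activates before DNA replication, had a median log2 fold change of -0.035. TYMS, thymidylate synthase, was at 18147, 19657 and 19939 in the shCTRL libraries and at 15845, 16714 and 14866 in the shHBO1 libraries. Its shHBO1 values were all below its shCTRL values, and the log2 fold change was -0.28 with an unadjusted p of 0.00531 in limma that did not survive adjustment. Of the 24 genes, 2 did not overlap (background 8.93%) and 1 had an unadjusted p under 0.05 in limma (background 3.55%). DESeq2 with the replicate block called TYMS and no other gene of the 7 lists (background 1.13% of genes tested). The blocked limma fit without the number 3 libraries, with 1 residual degree of freedom and 15.3% of all genes called, called 11 genes of these lists (ANAPC1, SMC2, CENPH, CENPW, KNL1, INCENP, CDC25A, CDKN1A, RRM2, TYMS and UHRF1). E2F2 had a log2 fold change of -0.17.

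Between replicate numbers the G1/S genes and the members had medians of opposite sign. The number 3 minus number 1 median was 0.14 for the 24 G1/S genes, with 22 above 0, and -0.14 for the 41 members. It was -0.16 for the 30 other kinesin, spindle and cytokinesis genes, of which 27 were below 0, and -0.022 for the 16 regulators. FOXM1 itself had -0.0046 and MYBL2 0.13. In the F test, CCNE2 (cyclin E2, 0.51) and RRM2 (a ribonucleotide reductase subunit, 0.44) differed and were higher in number 3. NUMA1 (-0.37), CIT (-0.42), CEP55 (-0.36), TROAP (-0.34), INCENP (-0.26), ESPL1 (-0.31) and WEE1 (-0.32) differed and were lower in number 3, and SAPCD2 (0.36) was higher. By list, the calls were 2 of 24 G1/S genes and 5 of 30 other kinesin, spindle and cytokinesis genes. They were 1 of 19 APC/C genes, 1 of 37 other kinetochore and checkpoint genes and 1 of 10 brakes. Among the 16 regulators and the 8 condensin genes there were 0. The background was 9.68% of all genes tested.

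**Figure D5:**
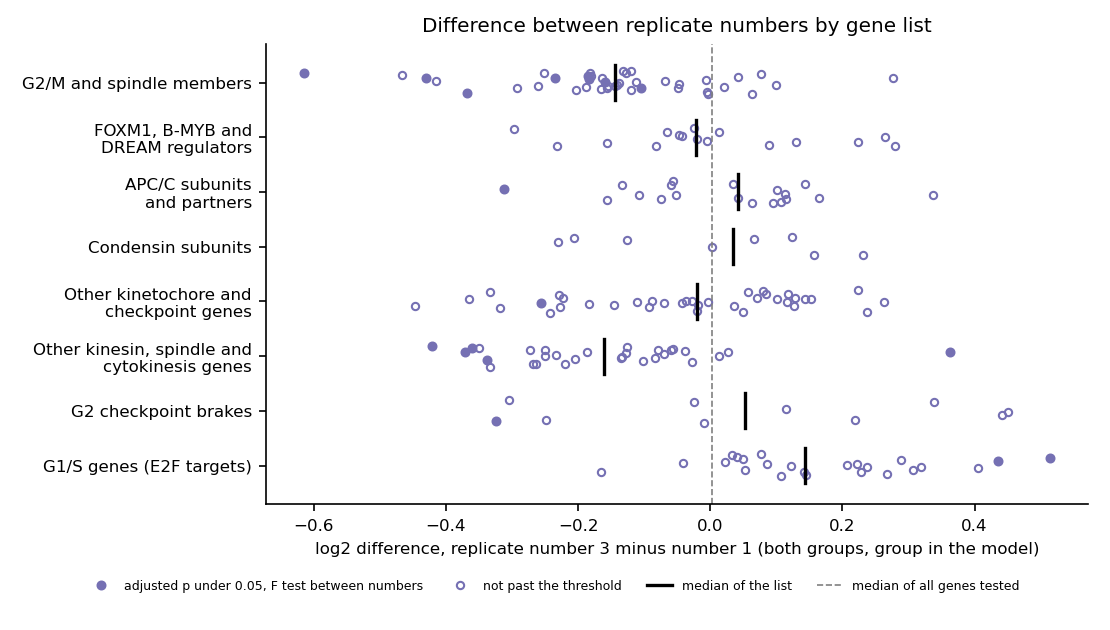
Difference between replicate numbers 3 and 1 (x axis, log2, both groups, with group in the model) for the members and 7 other gene lists (rows). Each circle is a gene, filled where its adjusted p between numbers was under 0.05, the short bars are list medians and the dashed line is the median of all genes tested. The members' median is -0.14 with 8 filled circles, and that of the G1/S genes 0.14.

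The members were also read transcript by transcript. They had 124 deposited transcripts, of which 117 passed the filter, and 0 of 117 passed the limma test between the groups (background 0.00296% of 33747 transcripts). With the replicate block 0 passed as well (background 0%). That blocked fit called no transcript of any gene, so it missed the hairpin target KAT7 too and says little about the members. At an unadjusted p under 0.05 there were 4 of 117 (3.77% of all transcripts tested), 1 of CDK1, 1 of CDC25B and 2 of AURKA, and 8 with the block (5.49% of all transcripts tested). No source used here says how reads were divided among overlapping transcripts, so these transcript values are uncertain.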

How the data were processed

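The authors deposited 1 table of normalized signal per RefSeq transcript for the 6 libraries. Bowtie 1.2.1.1, SAMtools, DESeq2 and hg19 are named, without roles, per the submitters' processing notes. Each deposited value divided by the value of 1 read in its library came out whole (tolerance 0.01), so whole reads were recovered for 100% of values. Transcripts were named from RefSeq (57191) or GENCODE release 29 (646), and 378 had no name and stayed out (at most 0.0977% of reads). Values were summed per gene and called normalized counts. The main test was limma 3.58.1 with trend on log2(normalized count + 1), on the 15173 genes whose mean reached 10, with p-values adjusted over all of them (Benjamini-Hochberg, threshold 0.05). A fold change on this scale understates the change of low genes. edgeR 4.0.16 and DESeq2 1.42.0 (R 4.3.3) ran on the recovered reads as alternatives.

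Replicate numbers were treated as pairs because deviations from the group means correlated between libraries with the same number across 15173 genes (r = 0.32, 0.19 and 0.48, each over 0.1), although shCTRL 2 correlated slightly more with shHBO1 1 (0.21) than with shHBO1 2. This check used the same values as the tests between numbers and the counts by library order, so those results are not independent of it. No label ties a number to a day or batch. Same-group libraries differed by more than sampling noise (chi-square per degree of freedom 12.3 to 67.4). Named genes were KAT7, all members (with statistics for the 2 of smallest p in each role), FOXM1, MYBL2, LIN9 and LIN54, and from each other list up to 2 genes of smallest p and those past a threshold. Members and lists were chosen with earlier results of these data known. The fits per transcript, those without number 3 libraries and the order of libraries under other scalings were added after seeing the data. The scripts were tested on simulated data. Promoters came from RefSeq (GRCh38.p14), whose coordinates were not mixed with the deposited table.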

Additional observations from a re-analysis of the deposited data

How the results depend on the processing

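The log2 fold change of KAT7 stayed between -2.16 and -1.89 and past the threshold in all 18 alternatives run. The count of genes called between groups was 1 with limma and moved to 19 with the replicate block, 19 with edgeR and the block, 19 with DESeq2, 148 with DESeq2 and the block and 2315 without the number 3 libraries with the block. Members called between groups stayed at 0 in the same 18 alternatives, the replicate block and leaving out each library included, and reached 4 only without the number 3 libraries with the block. Estimates above 0 ranged from 8 of 41 (without shHBO1 2) to 35 (without shCTRL 2 or without shHBO1 3), and up to 15 members changed sign. Members called between replicate numbers were 8 (background 9.68% of genes tested). They moved to 2 with any value above 0 tested (5.15%), 5 with edgeR (9.62%) and 14 with DESeq2 (14.7%). The count was 0 with the most abundant transcript (0.087%), and 0 to 29 when 1 library was left out (3.59% to 39.1%). The share of all genes called thus moved as well. The tests between numbers with 1 library left out had 1 residual degree of freedom. The cause of these moves was not tested. With 3 libraries a group, the intervals of ASPM, CDC25C and HMMR reached past 1.5-fold. Intervals measure the spread between libraries, and nothing says that these were separate cultures.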
